A study of Mus musculus with 16 samples.

Results

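Class I antigen presentation was followed through 10 genes, and all 10 were found among 24421 entries of the count table. They encode the heavy chains H2-K1 and H2-D1, their light chain B2m, the peptide transporter Tap1 and Tap2, the loading factor Tapbp, the inducible proteasome subunits Psmb8, Psmb9 and Psmb10, and the class I transactivator Nlrc5. The set was chosen because H2-K1 and B2m shifted between genotypes in these libraries, so differences between genotypes are given as a description, without a test, and TAC was the tested factor. All 10 passed the filter on low counts that left 13522 genes for testing.

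Polyadenylated RNA of mouse ventricles was sequenced in 16 libraries, 4 in each of 4 groups. JP2CR mice carried a knock-in allele of Jph2 in which codons 563 to 568 were deleted, which makes junctophilin-2, a tether between the plasma membrane and the sarcoplasmic reticulum, resistant to the protease calpain. Wildtype (WT) mice were their littermates. Male mice of both genotypes had trans-aortic constriction (TAC), a narrowing of the aorta that overloads the left ventricle, or sham surgery at 9 to 10 weeks of age, and tissue was taken 5 weeks later. The groups were JP2CR mice after TAC, JP2CR mice after sham surgery, WT mice after TAC and WT mice after sham surgery. The allele was in every cell of the body rather than in the heart alone, and whole ventricle holds muscle, vessel, stromal and immune cells together.

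Nearly all nucleated cells show peptides from their own proteins on class I molecules. The proteasome cuts the proteins, and in cells exposed to interferon-gamma the subunits Psmb8, Psmb9 and Psmb10 take the places of Psmb5, Psmb6 and Psmb7. Tap1 and Tap2 carry the peptides into the endoplasmic reticulum, where Tapbp bridges the transporter to heavy chains paired with B2m. In the heart, endothelial and immune cells are rich in class I, while the resting cardiomyocyte shows little.

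Library totals ran from 9966782 to 16609732 counts. Levels are in CPM, counts in 1000000 of the scaled library total. Cardiomyocyte markers summed to between 57179 and 94526 CPM, so the defining markers of the labelled tissue were present, and Jph2, whose deletion of a few codons a gene count cannot show, lay between 589 and 750 CPM. The labels give male mice, but the JP2CR sham libraries 3 and 4 had 189 and 196 CPM of Xist and no counts of 4 Y-linked genes. JP2CR TAC library 4 had 141 CPM of Xist together with Y-linked counts, and the other 13 libraries had at most 0.266 CPM of Xist. In JP2CR TAC library 3, 98.0% of the 1419 genes that separated replicates 1 and 2 of that group lay between them, and in WT TAC library 3, 98.0% of 1572 genes did. By the same measure the other libraries numbered 3 or 4 ran from 21.5% (JP2CR sham library 3) to 89.9% (WT sham library 3). Results that rest on these 5 libraries are given below without them.

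Levels relative to the length of merged exons in GENCODE vM21 spread the set widely. B2m stood first at 309.9 CPM per kb as the mean of the 4 group means, ahead of H2-K1 at 69.6 CPM per kb. Psmb10, H2-D1 and Tapbp followed at 28.7, 28.4 and 27.5 CPM per kb, and their group ranges overlapped, so these neighbours in the order were not separated. Tap2 came next at 11.9 CPM per kb, followed by Psmb8 at 4.76, Tap1 at 3.31, Psmb9 at 2.25 and Nlrc5 at 1.33 CPM per kb. Nlrc5 and Psmb9 rested on few reads, 85 to 207 and 74 to 138 counts a library.

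Of the genes, 7 lie on chromosome 17 within 1.35 Mb of the H2 complex (GRCm38). Psmb9, Tap1, Psmb8 and Tap2 sit side by side there within 34.3 kb. Psmb10 (chr8:105935728-105938392) and Nlrc5 (chr8:94434335-94527272) are on chromosome 8. B2m (chr2:122147687-122153082) shares chromosome 2 with Jph2, 41.2 Mb away. Exons of Tap1 and Psmb9 overlap by 212 bases on opposite strands, and those of Tapbp overlap Zbtb22 by 149 bases on the same strand. Overlaps with noncoding genes on the opposite strand are larger. Gm19412 covers 904 exon bases of Tapbp (24.9%), Gm15821 covers 533 of Tap2 (14.1%) and Gm20496 covers 498 of Psmb8 (14.7%). Since the strand setting of the counting is not given in the sources used here, reads from such stretches cannot be assigned.

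The promoters of H2-K1, H2-D1 and B2m are shown because these 3 genes were lower in WT hearts after TAC, as described below. Tap2 was lower there as well, but no promoter window was at hand for it. Each window holds 250 bases before and 50 after the RefSeq start (GRCm38.p6, gene strand). Capitals mark matches, on either strand, to an interferon-stimulated response element core (GAANNGAAA), an NF-kB motif, an X2 or cyclic AMP response element core (TGACG) and a Y box or inverted CCAAT box (ATTGG); no window below had overlapping matches.
H2-K1 (chr17:34000298-34000597, minus strand): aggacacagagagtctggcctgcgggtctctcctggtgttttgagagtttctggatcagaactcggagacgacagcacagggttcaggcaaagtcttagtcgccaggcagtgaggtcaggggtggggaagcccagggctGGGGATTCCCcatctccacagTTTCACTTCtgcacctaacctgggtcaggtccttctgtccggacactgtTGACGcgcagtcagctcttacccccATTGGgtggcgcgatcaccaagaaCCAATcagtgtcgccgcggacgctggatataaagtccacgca
H2-D1 (chr17:35262844-35263143, plus strand): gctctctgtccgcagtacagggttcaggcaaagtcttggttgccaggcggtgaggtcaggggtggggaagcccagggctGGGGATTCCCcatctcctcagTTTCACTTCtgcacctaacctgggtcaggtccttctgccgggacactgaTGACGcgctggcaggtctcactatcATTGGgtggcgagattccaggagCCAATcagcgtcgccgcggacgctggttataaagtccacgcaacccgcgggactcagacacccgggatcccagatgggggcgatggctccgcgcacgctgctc
B2m (chr2:122147437-122147736, plus strand): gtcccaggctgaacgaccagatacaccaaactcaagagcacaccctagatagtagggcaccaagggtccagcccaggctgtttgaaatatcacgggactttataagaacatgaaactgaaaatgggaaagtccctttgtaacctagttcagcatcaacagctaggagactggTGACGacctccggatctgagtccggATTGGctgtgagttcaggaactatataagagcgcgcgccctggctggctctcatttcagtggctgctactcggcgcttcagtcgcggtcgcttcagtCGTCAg

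The windows of H2-K1 and H2-D1 were 88.3% identical over 239 aligned bases and held the same 4 motifs in the same order, NF-kB, interferon element, X2 and Y box. In H2-K1 these matches began at positions -111, -90, -41 and -16 from the RefSeq start, and in H2-D1 at -171, -150, -101 and -76. A further Y box match on the other strand began at 9 in H2-K1 and at -53 in H2-D1. The H2-K1 start used, 34000347, lies inside the RefSeq gene, which reaches 34000619 on this minus strand. Positions therefore depend on the start chosen and are not compared between the genes. All 4 motifs occurred together in 8 of 32851 promoter windows of the genome (0.0244%). The B2m window held X2 at -78 and at 45 and the Y box at -53, and no match to the interferon or NF-kB letters. RefSeq windows were at hand for 8 of the 10 genes, H2-K1, H2-D1, B2m, Tap1, Tapbp, Psmb8, Psmb9 and Psmb10. The Y box occurred in 6 of them against 37.4% of all windows, X2 in 5 against 20.8%, the interferon core in 2 against 7.52% and NF-kB in 2 against 1.75%. These windows are not independent. Those of Tap1 and Psmb9 cover nearly the same stretch on opposite strands, so their Y box and X2 matches are the same bases counted again. The interferon and NF-kB matches were those of the similar H2-K1 and H2-D1 windows. A gamma-activated site (TTCNNNGAA) was found in the Psmb8 window only, against 8.30% of all windows.

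The first question was how pressure overload changed the pathway in hearts of either genotype. In TAC against sham averaged over genotypes, 1 of 10 genes rose (27.1% of all tested genes were called higher) and 3 of 10 fell (27.6% were called lower), which is near the background. Psmb10 rose, and H2-K1, Tap2 and Tapbp fell. The median log2 fold change was -0.06 over the 10 genes and -0.01 over all tested genes. Within JP2CR hearts 2 of 10 rose after TAC (20.7% of all genes) and 1 of 10 fell (20.7%), and within WT hearts 1 of 10 rose (21.1%) and 4 of 10 fell (20.8%). The difference between these counts was not tested, and the effects within a genotype share their libraries with the genotype shift that chose the set.

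**Figure D1:**
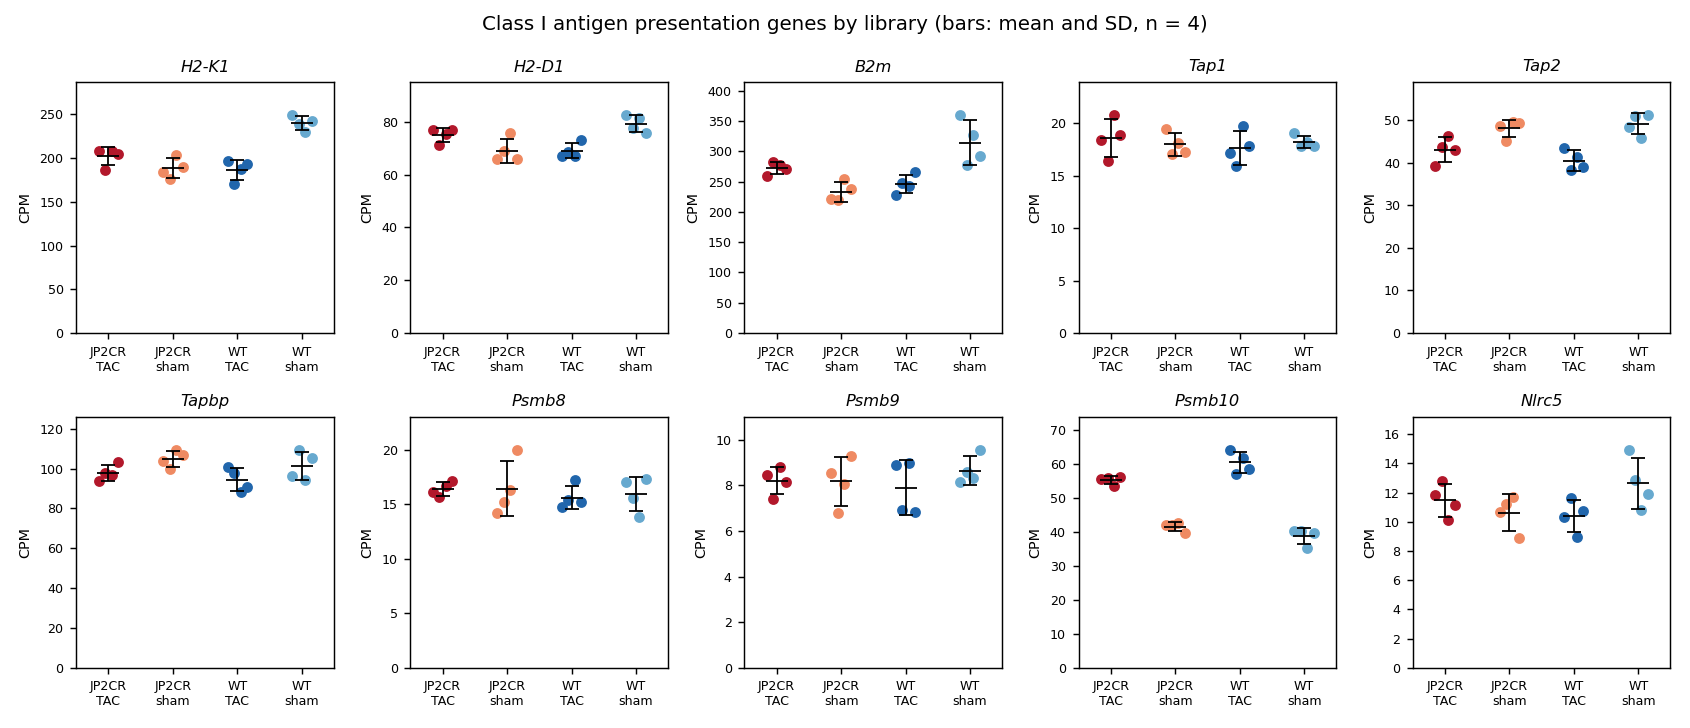
Level in CPM (y axis, linear, starting at 0) of the 10 genes in each of 16 libraries, by group; black bars give the mean and SD of 4 libraries. WT sham libraries stand above the other groups for H2-K1, at 230.0 to 249 CPM, and TAC libraries of both genotypes stand above sham libraries for Psmb10.

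H2-K1, the more abundant of the 2 classical heavy chains of this strain, had 209, 187, 208 and 205 CPM in JP2CR TAC hearts, against 185, 176, 203 and 190.0 CPM in JP2CR sham hearts. In WT hearts it had 196, 170.2, 187 and 193 CPM after TAC, against 249, 238, 230.0 and 243 CPM after sham surgery. The WT sham libraries were all above the other 12, and those 12 overlapped across their 3 groups. TAC lowered H2-K1 in WT hearts by -0.36 ± 0.06 on the log2 scale (SE, n = 4 against 4, edgeR adjusted p = 6.00e-05). In JP2CR hearts the effect was 0.10 ± 0.06 (adjusted p = 0.162), and averaged over genotypes it was -0.13 ± 0.04 (adjusted p = 0.0102), a call that was lost without the 3 libraries with Xist (-0.10, adjusted p = 0.0521). For H2-K1, H2-D1 and B2m, effects within a genotype share libraries with the genotype shift that chose the set. The p-values within a genotype are therefore not independent of that choice.

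H2-D1, the second classical heavy chain, had 77.1, 71.3, 75.5 and 76.7 CPM in JP2CR TAC hearts, against 66.0, 69.0, 75.6 and 65.9 CPM in JP2CR sham hearts. WT hearts had 67.1, 68.7, 67.2 and 73.2 CPM after TAC, against 82.6, 77.5, 81.3 and 75.7 CPM after sham surgery. The WT groups did not overlap, as was so downward for 4 of the 10 genes and for 21.0% of all genes, while JP2CR sham library 3 reached into the JP2CR TAC range. H2-D1 fell in WT hearts after TAC (log2 fold change -0.20 ± 0.05, edgeR adjusted p = 0.00667). Its effect was 0.12 ± 0.05 in JP2CR hearts (adjusted p = 0.0876) and -0.04 ± 0.04 on average (adjusted p = 0.397). Heavy chain genes are close copies: the transcripts of H2-K1 and H2-D1 were 91.1% identical, and 8.79% of 50-base windows of H2-K1 and 14.3% of those of H2-D1 occurred in another gene. At 100 bases these shares were 0 and 4.64%, so part of the heavy chain reads may have been shared by the counting.

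B2m, which has no such copy (0 of its 50-base windows occurred elsewhere), moved in opposite directions. It had 259, 283, 277 and 271 CPM in JP2CR TAC hearts, against 221, 219, 254 and 237 CPM in JP2CR sham hearts. WT hearts had 228, 248, 243 and 266 CPM after TAC, against 360.1, 277, 327 and 292 CPM after sham surgery. Neither pair of groups overlapped, as for 16.8% of all genes upward in JP2CR and 21.0% downward in WT. B2m rose in JP2CR hearts after TAC (log2 fold change 0.23 ± 0.07, edgeR adjusted p = 0.0198) and fell in WT hearts (-0.35 ± 0.07, adjusted p = 0.000953), which left an average of -0.06 ± 0.05 (adjusted p = 0.333). The rise and the fall share libraries with the genotype shift for which B2m was chosen, so their p-values are not independent of it. The rise in JP2CR hearts was no longer called without TAC libraries 3 of both genotypes (0.22, adjusted p = 0.0581) or without all 5 doubted libraries (0.30, adjusted p = 0.0522), and was called without the 3 with Xist (0.31, adjusted p = 0.0125). In the authors' deposited table the TAC fold changes (log2) of B2m were 0.23 in JP2CR and -0.34 in WT, and those of H2-K1 were 0.11 and -0.36.

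In bulk tissue, fewer cells of a type and less RNA per cell cannot be told apart, and markers of several cell types moved with these contrasts. The counts of markers below stand beside these shares of all tested genes. After TAC, 20.7% were called higher and 20.7% lower in JP2CR, and 21.1% higher and 20.8% lower in WT. Of 7 cardiomyocyte markers, 5 fell after TAC in JP2CR and 4 in WT, with medians of -0.29 and -0.31 on the log2 scale. Of 3 leukocyte markers, 3 rose in both genotypes, with medians of 0.82 in JP2CR and 0.54 in WT. Markers of pericytes and smooth muscle, 6 in all, had 1 gene higher and 2 lower in JP2CR (median -0.14), and 1 higher and 3 lower in WT (median -0.37). Of 10 macrophage markers, 8 rose after TAC in JP2CR and 8 rose and 1 fell in WT, and their summed level was 515 to 598 CPM in JP2CR TAC and 352 to 437 CPM in JP2CR sham hearts, and 451 to 497 CPM in WT TAC and 344 to 382 CPM in WT sham hearts. Macrophage markers were thus higher after TAC in WT hearts, in which H2-K1, H2-D1 and B2m were lower. Of 7 endothelial markers, Kdr and Tek fell in JP2CR, with sums between 1023 and 1303 CPM over all 16 libraries. T cell markers summed to 3.54 to 5.25 CPM in JP2CR TAC, 2.10 to 2.78 in JP2CR sham, 2.46 to 3.49 in WT TAC and 2.67 to 3.53 in WT sham hearts, and 5 of the 7 in the table, Cd3e, Cd3d, Cd3g, Cd8a and Cd8b1, were too low to test. Of the other two, Cd4 rose in JP2CR (0.68 ± 0.25, edgeR adjusted p = 0.0398) and Lck was not called. Natural killer cell markers summed to at most 1.87 CPM. B and plasma cell markers were 6.82 to 79.9 CPM in JP2CR TAC against 2.41 to 5.44 CPM in JP2CR sham hearts, and 4 of 4 tested rose there. Of 8 adipocyte markers, 7 fell in WT hearts after TAC, all but Fabp4, while the 8 had no call in JP2CR hearts, with edgeR adjusted p of 0.0880 or more. Their median log2 fold change was -0.42 in JP2CR and -6.74 in WT, or -6.10 with Ucp1 and Retn, which had no counts in WT TAC hearts, set to a floor of 3 counts per library. Fabp4, which endothelial cells also express, stood at 342 to 514 CPM over all 16 libraries. The other 7 summed to 0.807 to 54.0 CPM in JP2CR TAC, 1.46 to 136 CPM in JP2CR sham, 0.155 to 1.93 CPM in WT TAC and 8.48 to 144 CPM in WT sham hearts, so WT TAC libraries held little of these markers. Between genotypes after TAC the median, as a description, was 4.73 for JP2CR over WT, or 3.82 with the same floor. Of 6 atrial markers, 2 fell in JP2CR and 5 fell and 1 rose in WT, with medians of -1.27 in JP2CR and -3.46 in WT. JP2CR over WT, as a description, had a median of 1.36 after TAC and of -0.61 after sham surgery over these 6 genes. None of the markers in these lists was at 0 in all 16 libraries, and the part of these cell types in the class I results was not tested.

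Among the genes of peptide transport and loading, Tap2 fell after TAC. It had 39.1, 43.6, 46.2 and 42.8 CPM in JP2CR TAC hearts, against 48.5, 45.1, 49.5 and 49.2 CPM in JP2CR sham hearts, with JP2CR TAC library 3 above the lowest sham library. WT hearts had 43.4, 38.2, 41.3 and 38.9 CPM after TAC, against 48.4, 50.9, 45.8 and 51.1 CPM after sham surgery, with no overlap. The log2 fold change of Tap2 was -0.22 ± 0.04 on average (edgeR adjusted p = 0.00031) and -0.28 ± 0.06 in WT (adjusted p = 0.00128), called under all alternatives tried. The effect in JP2CR, -0.16 ± 0.06 (adjusted p = 0.0416), was called in 11 of 27 alternatives, with adjusted p between 0.0262 and 0.269.

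Tap1, the partner of Tap2 in the transporter, showed no call: it averaged 18.6 ± 1.81 CPM in JP2CR TAC, 18.0 ± 1.11 in JP2CR sham, 17.7 ± 1.61 in WT TAC and 18.2 ± 0.58 CPM in WT sham hearts (SD, n = 4 each), with a log2 fold change of 0.00 ± 0.06 on average (edgeR adjusted p = 0.997). Tapbp averaged 97.9 ± 4.08 CPM in JP2CR TAC, 105 ± 4.11 in JP2CR sham, 94.5 ± 5.94 in WT TAC and 101 ± 7.14 CPM in WT sham hearts, and groups overlapped in both genotypes. Its fall of -0.10 ± 0.04 (adjusted p = 0.0486) stood close to the threshold and was lost in 18 of 26 alternatives, with adjusted p of up to 0.240.

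**Figure D2:**
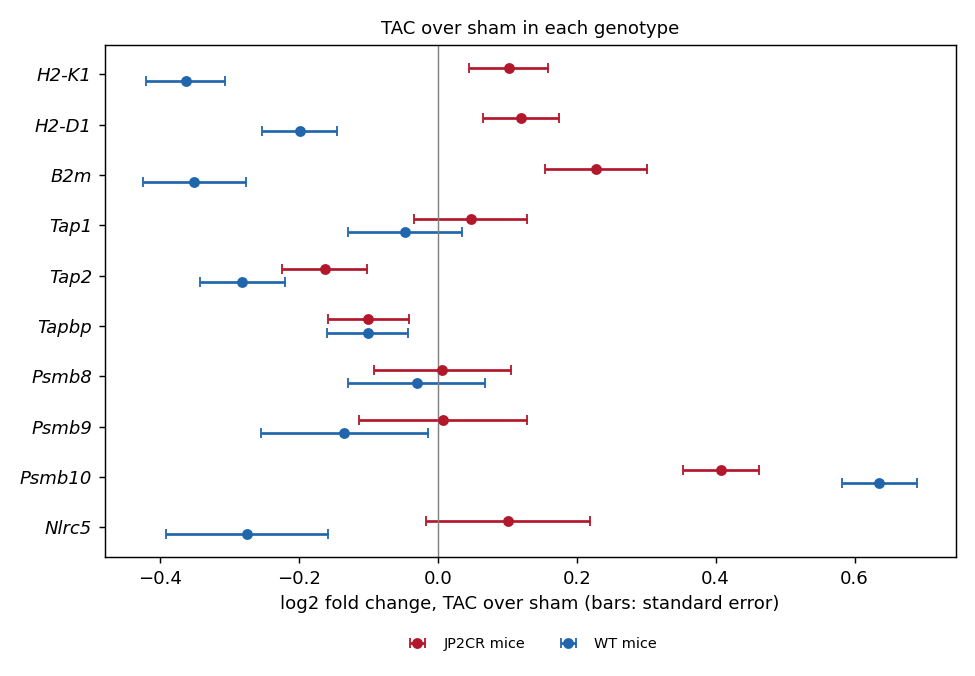
Log2 fold change of TAC over sham (x axis) of each gene in JP2CR mice and in WT mice, with the standard error from the edgeR fit of 16 libraries. H2-K1, H2-D1 and B2m lie left of 0 in WT and right of 0 in JP2CR, where of the 3 only B2m passed the test; Psmb10 lies right of 0 in both.

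The inducible proteasome subunits parted ways. Psmb10, the inducible counterpart of Psmb7, had 55.5, 55.8, 53.3 and 56.0 CPM in JP2CR TAC hearts, against 41.9, 42.1, 42.6 and 39.5 CPM in JP2CR sham hearts. WT hearts had 64.1, 57.1, 61.7 and 58.5 CPM after TAC, against 40.2, 40.2, 35.3 and 39.6 CPM after sham surgery. All 8 TAC libraries were above all 8 sham libraries; TAC libraries were wholly above sham libraries in JP2CR for 2 of the 10 genes (16.8% of all genes) and in WT for 1 (21.0%), and none of the 10 was wholly below in JP2CR (17.3%). Psmb10 rose by 0.52 ± 0.04 on the log2 scale on average (edgeR adjusted p = 4.86e-09), by 0.41 ± 0.05 in JP2CR and by 0.64 ± 0.05 in WT, and was called under all alternatives tried.

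Psmb8 averaged 16.4 ± 0.64 CPM in JP2CR TAC, 16.4 ± 2.53 in JP2CR sham, 15.6 ± 1.08 in WT TAC and 15.9 ± 1.58 CPM in WT sham hearts, and its averaged TAC effect was -0.01 ± 0.07 (edgeR adjusted p = 0.898). Psmb9 averaged 8.21 ± 0.59 CPM in JP2CR TAC, 8.18 ± 1.07 in JP2CR sham, 7.90 ± 1.20 in WT TAC and 8.64 ± 0.64 CPM in WT sham hearts, with an averaged effect of -0.06 ± 0.09 (adjusted p = 0.550). With 74 to 138 counts of Psmb9 a library, small changes were not detectable.

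Ratios within a library, which need no scaling between libraries, gave the same picture. Per 100 counts of Psmb7, Psmb10 had 33.2 ± 1.29 counts in JP2CR TAC and 25.4 ± 0.83 in JP2CR sham hearts, and 36.5 ± 2.66 in WT TAC and 23.6 ± 1.84 in WT sham hearts (SD, n = 4 each). The log2 ratio was higher by 0.51 after TAC (exact permutation test within genotypes, 2-sided, p = 0.000408, adjusted over 3 ratios 0.00122), by 0.38 in JP2CR and 0.63 in WT. Psmb7 itself had a log2 fold change of 0.02 ± 0.03 (edgeR adjusted p = 0.669). The Psmb8 to Psmb5 ratio differed by -0.00 (exact permutation p = 0.972, adjusted 0.972) and the Psmb9 to Psmb6 ratio by 0.06 (exact permutation p = 0.462, adjusted 0.693). Within JP2CR the Psmb9 ratio was 7.35 to 7.88 after TAC, against 5.75 to 7.25 after sham surgery, and within WT the groups overlapped. A ratio shows unequal change of its 2 genes, and Psmb6 fell slightly on its own (-0.12 ± 0.04, adjusted p = 0.00958).

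**Figure D3:**
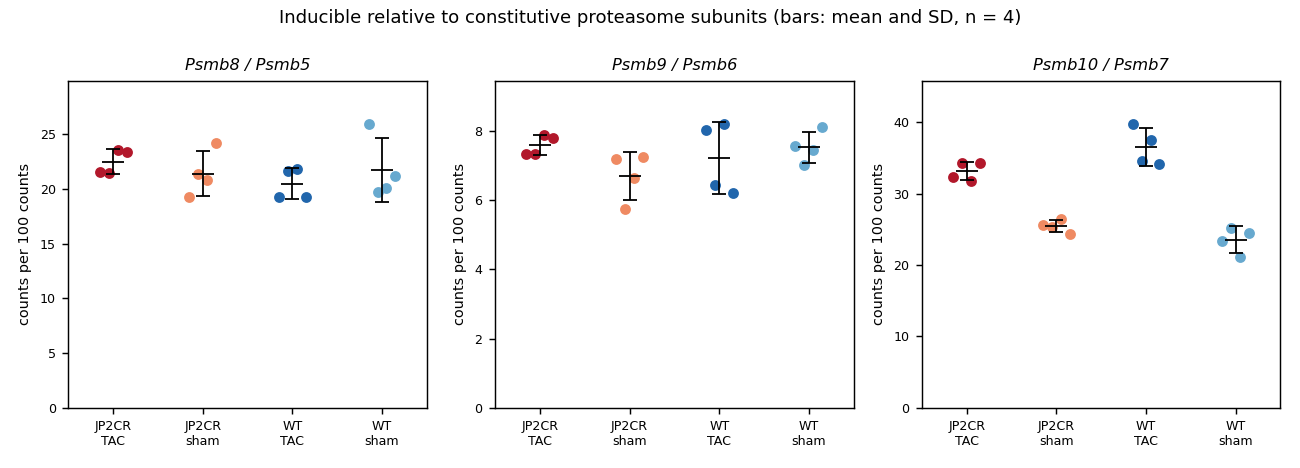
Counts of each inducible catalytic subunit per 100 counts of the constitutive subunit whose place it takes (y axis, from 0), in 16 libraries by group, with mean and SD of 4. The Psmb10 to Psmb7 ratio is at least 31.8 in all TAC libraries and at most 26.4 in all sham libraries, while the Psmb8 to Psmb5 ratio overlaps between groups.

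Nlrc5, which assembles on the X and Y boxes of class I promoters, had 11.8, 12.8, 10.1 and 11.2 CPM in JP2CR TAC hearts, against 10.7, 11.3, 11.7 and 8.89 CPM in JP2CR sham hearts. WT hearts had 10.3, 11.6, 8.96 and 10.8 CPM after TAC, against 14.9, 12.9, 10.8 and 11.9 CPM after sham surgery. Groups overlapped in both genotypes. The log2 fold change was -0.27 ± 0.12 in WT (edgeR adjusted p = 0.0676) and 0.10 ± 0.12 in JP2CR (adjusted p = 0.524); the WT effect was called without WT sham library 3 (adjusted p = 0.0327) or without WT TAC library 2 (adjusted p = 0.0473).

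The genotype contrasts are a description, since the set was chosen on them. In sham hearts, JP2CR over WT gave log2 fold changes of -0.35 ± 0.06 for H2-K1, -0.20 ± 0.05 for H2-D1 and -0.43 ± 0.07 for B2m, and the authors' deposited table gave -0.31, -0.17 and -0.35. For these 3 of 10 genes all JP2CR sham libraries were below all WT sham libraries (2.78% of all tested genes), and none of the 10 was wholly above (1.98%). The other 7 genes overlapped, between -0.24 for Nlrc5 and 0.10 for Psmb10. Without the libraries with Xist the sham values were -0.42 for H2-K1, -0.23 for H2-D1 and -0.52 for B2m.

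After TAC the genotypes lay close to each other. JP2CR over WT was 0.12 ± 0.06 for H2-K1, 0.12 ± 0.05 for H2-D1 and 0.15 ± 0.07 for B2m, with overlapping groups, and 9 of 10 genes had values above 0. Without the 5 doubted libraries the values were 0.08 ± 0.07 for H2-K1, 0.09 ± 0.07 for H2-D1 and 0.13 ± 0.10 for B2m. Psmb10 alone was wholly lower in JP2CR TAC than in WT TAC hearts (-0.13 ± 0.05; 4.13% of all tested genes were wholly lower, 3.96% wholly higher). The TAC effect in JP2CR minus that in WT was 0.46 ± 0.08 for H2-K1, 0.32 ± 0.08 for H2-D1, 0.58 ± 0.10 for B2m, 0.38 ± 0.17 for Nlrc5 and -0.23 ± 0.08 for Psmb10. H2-K1 and B2m, the genes the choice rested on, carry most of the summed level of the set. The other 8 genes summed to 320.3 to 334 CPM in JP2CR TAC, 306 to 331 CPM in JP2CR sham, 312 to 327 CPM in WT TAC and 308 to 333 CPM in WT sham hearts, ranges that overlap.

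**Figure D4:**
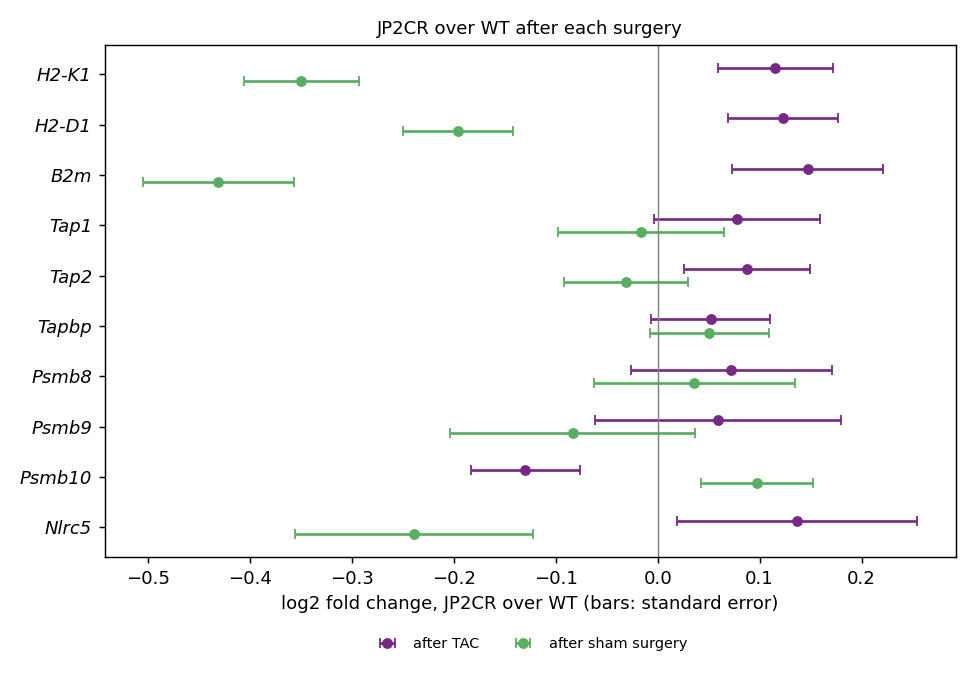
Log2 fold change of JP2CR over WT (x axis) after TAC and after sham surgery, with the standard error, for the 10 genes; this is the contrast on which the set was chosen. H2-K1, H2-D1, B2m and Nlrc5 lie below 0 after sham surgery, at -0.24 or lower except H2-D1 at -0.20, and above 0 after TAC. Tap1, Tap2 and Psmb9 have the same signs nearer to 0, at -0.02, -0.03 and -0.08 after sham surgery and 0.08, 0.09 and 0.06 after TAC.

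Within groups the 10 genes did not vary as 1 block. Over deviations of log2 CPM from the group mean in 16 libraries, 30 of 45 pairs had a positive Pearson r and the median r was 0.18. The pairs with the highest r were Tap2 with Psmb9 (0.62), H2-D1 with B2m (0.60) and Tap2 with Tapbp (0.54), and Psmb9 with Nlrc5 had the lowest (-0.65). H2-K1 followed the mean of the other 9 most closely (0.76) and Nlrc5 least (-0.28). The 8 genes outside the set with the highest r to its mean deviation, out of 11573 ranked, were Rpl13 (0.87), Stk16 (0.84), Flad1 (0.82), Tcirg1 (0.81), Repin1 (0.81), Mbd5 (0.80), Wbp5 (0.80) and Rad9a (0.80). Over all tested genes the median absolute r with that mean was 0.26, and the top of so long a ranking is high in part through the picking. The points share a library's depth and tissue content, so these r values are descriptions.

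Of 18 other heavy chains of class I, 9 passed the filter, and H2-Q6, H2-Q7 and H2-T9 were listed at 0 in every library. These genes have near-identical copies, and the part of shared reads in such zeros was not tested. After TAC, 1 of the 9 rose and 2 fell on average (27.1% and 27.6% of all genes), 1 rose in JP2CR (20.7%) and 3 fell in WT (20.8%), with a median log2 fold change of -0.17 on average, 0.03 in JP2CR and -0.09 in WT, against -0.01, -0.00 and -0.00 over all genes. Those called on average were Cd1d1, which presents lipids (-0.88 ± 0.17, edgeR adjusted p = 0.000263), H2-Q4 (-0.22 ± 0.05, adjusted p = 0.00145) and Mr1, which presents vitamin B metabolites to mucosal T cells (0.18 ± 0.06, adjusted p = 0.0250).

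H2-Q4, a non-classical heavy chain, had 45.6, 54.4, 45.4 and 47.8 CPM in JP2CR TAC hearts, against 47.1, 42.9, 51.4 and 47.1 CPM in JP2CR sham hearts. WT hearts had 41.8, 44.6, 42.1 and 47.5 CPM after TAC, against 66.7, 57.7, 59.4 and 59.5 CPM after sham surgery. As with H2-K1, the WT sham libraries were above the other 12. H2-Q4 fell in WT (-0.47 ± 0.07, edgeR adjusted p = 5.02e-05), and its effect in JP2CR was 0.03 ± 0.07 (adjusted p = 0.751). Of its 50-base windows, 24.3% occurred in other genes, so its counts may include reads of related heavy chains.

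Of 8 genes of peptide loading and trimming, 3 rose and 2 fell after TAC on average, against 27.1% and 27.6% of all genes. Lnpep, an aminopeptidase of endosomes used in cross-presentation, rose (0.63 ± 0.07), and the lectin chaperones Canx (-0.33 ± 0.04) and Calr (-0.19 ± 0.04), which fold heavy chains among many other glycoproteins, fell. Among 7 proteasome activators and constitutive subunits 1 rose and 3 fell, beside the same shares of all genes. Psme1 and Psme2, the subunits of the interferon-inducible PA28 activator, fell (-0.58 ± 0.04, edgeR adjusted p = 5.47e-09, and -0.27 ± 0.05, adjusted p = 0.000222), while Psme4, the PA200 activator, rose (0.45 ± 0.06, adjusted p = 2.95e-06). The PA28 genes thus moved opposite to Psmb10 in the same hearts.

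Of 13 transcription factors that act on class I promoters, 4 rose and 5 fell on average (27.1% and 27.6% of all genes), and the list's median was 0.03, against -0.01 over all genes. Irf1, which binds interferon response elements, fell (-0.19 ± 0.05, edgeR adjusted p = 0.00607), as did Nfyc, a subunit of the factor that binds the Y box (-0.33 ± 0.05, adjusted p = 4.08e-05). Creb1, which can bind X2, rose (0.30 ± 0.06, adjusted p = 0.000612). Of the interferon-gamma pathway 9 of 11 genes were testable, 3 rising and 4 falling on average, beside the same shares; Ifng itself and Socs1 were too low to test. The receptor chains went apart, Ifngr1 at 0.53 ± 0.05 and Ifngr2 at -0.27 ± 0.05, both called.

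Of 13 interferon-gamma-inducible GTPases, which guard against intracellular parasites, 2 rose and 6 fell on average (27.1% and 27.6% of all genes), 1 rose and 6 fell in JP2CR (20.7% and 20.7%), and 1 rose and 4 fell in WT (21.1% and 20.8%). The list's median was -0.21 on average, -0.24 in JP2CR and -0.12 in WT. Igtp had 23.4, 15.7, 15.6 and 18.1 CPM in JP2CR TAC hearts, against 23.5, 24.6, 23.2 and 28.6 CPM in JP2CR sham hearts. WT hearts had 16.5, 15.8, 16.2 and 15.7 CPM of Igtp after TAC, against 38.6, 35.0, 36.7 and 37.5 CPM after sham surgery. The WT groups did not overlap, and JP2CR sham hearts lay between them; JP2CR TAC library 1 reached into the JP2CR sham range. Igtp fell in both genotypes (JP2CR -0.45 ± 0.10, edgeR adjusted p = 0.00224; WT -1.20 ± 0.10, adjusted p = 8.99e-08). Irgm2 did likewise (JP2CR -0.24 ± 0.08, adjusted p = 0.0224; WT -0.78 ± 0.08, adjusted p = 4.74e-07), while Gbp6 rose (0.92 ± 0.10 on average, adjusted p = 4.01e-07).

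Of 16 genes of the type I interferon response, 9 rose after TAC on average (27.1% of all genes) and the other 7 were not called, 5 rose in JP2CR (20.7%) and 9 rose in WT (21.1%), with a median log2 fold change of 0.27 on average, 0.21 in JP2CR and 0.35 in WT. Ifit2 and Ifit3, which bind foreign RNA or its sensors, rose by 0.80 ± 0.05 and 0.67 ± 0.09, Irf7 by 0.47 ± 0.07 and Mx1 by 1.22 ± 0.19, all called. In WT hearts after TAC, Psmb10 and 9 of 16 genes of the type I list were thus higher (21.1% of all genes). H2-K1, H2-D1, B2m and Tap2 were lower (20.8% of all genes). Of the 13 GTPases, 4 were lower there, Igtp and Irgm2 among them, while 1 was higher and 8 were not called.

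In sham hearts, JP2CR over WT was -0.37 ± 0.07 for H2-Q4, -0.57 ± 0.10 for Igtp and -0.43 ± 0.08 for Irgm2, given as a description beside the -0.35 of H2-K1. Over all 13 GTPases the median in sham hearts was 0.10, and Irgm1 and Gbp6, also named after their values were seen, were at -0.02 each. After TAC, JP2CR over WT was 0.13 ± 0.07 for H2-Q4, 0.18 ± 0.11 for Igtp and 0.11 ± 0.08 for Irgm2. These 3 genes were picked for display after their values were seen, from those the naming rule had taken.

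**Figure D5:**
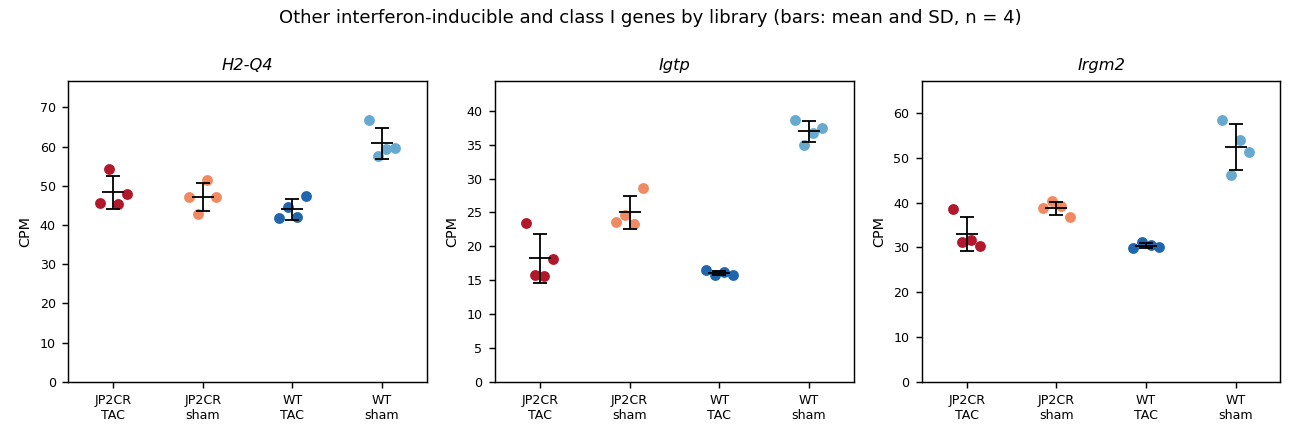
Level in CPM (y axis, from 0) of H2-Q4, Igtp and Irgm2 in 16 libraries by group, with mean and SD of 4. WT sham libraries are above the other 12 for each of the 3 genes, for Igtp at 35.0 CPM or more against 28.6 CPM or less.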

How the data were processed

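Ventricular polyadenylated RNA of 16 mouse libraries was sequenced from strand-marking library preparations, per the labels' protocols, and groups and replicate numbers came from the sample titles. The submitters' processing notes name the mm10 build, Picard 1.128, FastQC 1.0.0 and STAR 2.5.0b. They also name bedtools 2.17.0, DESeq2 1.6.3 and Cufflinks 2.2.1. What each tool did, the annotation and the counter remain not given in the sources used here. The values tested are read counts for each gene symbol, in whole numbers, as the authors deposited them, with no normalization. The table also holds log2 fold changes and adjusted p-values that the authors deposited with no method stated, some fields of the sham comparison holding other values (text in place of a number). They are quoted only where that table is named. No count column was without a sample.

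The test was edgeR 4.0.16 (R 4.3.3) with filterByExpr per group, TMM factors, 1 mean for each group in a fit of all 16 libraries, and the quasi-likelihood F test. Benjamini-Hochberg adjusted p-values run over all 13522 tested genes, and a gene was called at an adjusted p under 0.05. The standard error is the log2 fold change divided by the square root of F. CPM are relative to TMM-scaled totals. The 3 tested contrasts were TAC over sham averaged over genotypes, in JP2CR and in WT. Genotype contrasts and the difference of TAC effects were not tested for the genes shown, because the genes were chosen on them. The members, lists, tests and alternatives were chosen with earlier results of these data known. Libraries are not tied to named animals in the labels, so the p-values reflect spread among libraries that may be technical.

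All 10 genes are named in every comparison, as are up to 4 genes of each list by smallest p in the averaged contrast, and the 8 genes with the most similar deviations within groups (mean log2 CPM of at least 1, prior count 2, no predicted-gene symbols). Some genes that the rule takes are given only through their list or are not reported here. Positions and promoters came from RefSeq, exon lengths and overlaps from GENCODE vM21, and shared windows and transcript identity from the GENCODE transcripts. Same-numbered libraries of different groups did not deviate together, so replicate numbers were not treated as pairs. The fit was also run on simulated counts, drawn independently for each library, so that run cannot speak to the doubted libraries. Alternatives were DESeq2 1.42.0, limma 3.58.1 voom, other scaling factors and filters, fits of the groups compared alone, the replicate block, and fits without single or doubted libraries.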

Additional observations from a re-analysis of the deposited data

Results flagged for a closer look

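In JP2CR TAC library 2, H2-K1 was at 186.9 CPM, set apart below the other 3 libraries of its group at 205 to 209 CPM. In WT sham library 3, Psmb10 was at 35.3 CPM, below the other 3 at 39.6 to 40.2 CPM. These were found among 40 groups of 4 libraries checked against Dixon's critical value, and chance flags about 1 in 20 groups. B2m moved in opposite directions after TAC. Every JP2CR TAC library was above all JP2CR sham libraries (16.8% of all genes). Every WT TAC library was below all WT sham libraries (21.0%). The rise in JP2CR hearts was not called in 4 of 27 alternatives. The 2 effects had a difference of 0.58 on the log2 scale. That difference was not tested, because B2m was chosen for its shift between genotypes, which rests on the same libraries.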

How the results depend on the processing

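The calls of H2-K1, H2-D1, B2m, Tap2 and Psmb10 in WT hearts, of Tap2 and Psmb10 on average and of Psmb10 in JP2CR hearts held under all alternatives run, and no called effect changed its sign. On average over genotypes, 1 gene in place of 3 was called lower without the 3 libraries with Xist and without all 5 doubted libraries, as H2-K1 (-0.11, adjusted p = 0.0797 without the 5) and Tapbp lost their calls. In JP2CR hearts, 1 gene in place of 2 was called higher without TAC libraries 3 of both genotypes and without the 5, and 1 to 4 when single libraries were left out: 1 without JP2CR sham library 2 or JP2CR TAC library 2, where B2m lost its call, and 4 without JP2CR sham library 3, where H2-K1 (0.15) and H2-D1 (0.17) were called as well. The fall of Tap2 in JP2CR left 0 genes called lower with DESeq2, with no filter, with the replicate block, without the 3 libraries with Xist, without the 5 and in a fit of the JP2CR groups alone, and 0 or 1 when single libraries were left out. The causes were not tested. Without single libraries, 4 or 5 genes were called lower in WT, 2 or 3 on average. Other scaling factors moved the median of all genes by at most 0.01 on the log2 scale.

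Over 24 pairs of same-numbered libraries the correlation of deviations ran from -0.17 to 0.13, with 3 pairs above 0.1 and 4 best with their own number. With the replicate number as a block, 1 gene was called higher and 2 lower on average, 2 higher and 0 lower in JP2CR, and 1 higher and 4 lower in WT. Depth limits Nlrc5 and Psmb9 most, with at most 207 counts in a library.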
